A study of Homo sapiens with 12 samples.

Results

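The lipid genes PLIN3, PLIN4, PLIN5, HMGCS1, LPCAT1, AMACR and ABCA7 were followed across 12 RNA-seq libraries of HaCaT cells, an immortalized line of human skin keratinocytes. These 7 entries, of 61498 in the deposited count tables, were chosen by name because they lie in stretches of the genome where gene names and reads match. The choice was made with earlier results of these data known. Cells carried a short hairpin RNA against MLL1 (shMLL1; gene KMT2A, a histone methyltransferase), UTX (shUTX; gene KDM6A, a histone demethylase) or NRF2 (shNRF2; gene NFE2L2, a transcription factor of the oxidative stress response), or a control hairpin (shControl). Each of the 4 derivatives was sequenced after 24 h in 100 µM H2O2, after 24 h in 25 µg/mL cerium oxide nanoparticles (CeO2) and untreated, with 1 library for each combination. Each knockdown is thus a single derivative, seen in 3 libraries that are not separate knockdowns, and p-values measure only the spread between these libraries. The labels name no clone and no hairpin sequence.

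Lipid droplets store neutral lipid under a phospholipid skin coated by perilipins; PLIN3 is made in most cells and moves from the cytosol onto new droplets, PLIN4 coats droplets mainly in fat and muscle, and PLIN5 links droplets to mitochondria in tissues that burn fat. HMGCS1 makes HMG-CoA, the precursor from which the mevalonate pathway builds cholesterol, and its transcription is raised by the sterol-sensing factor SREBP2. LPCAT1 reattaches a fatty acid to lysophosphatidylcholine, AMACR turns branched-chain fatty acyl-CoAs into the form that can be oxidized, and ABCA7 is a membrane transporter that moves phospholipid. The lipid between the cells of the outermost skin layer is largely cholesterol, ceramides and fatty acids that keratinocytes make.

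The 250 bases before the start site are given for HMGCS1, PLIN3, PLIN4 and ABCA7, the members with the largest called changes in a knockdown. The sequences are those of RefSeq on GRCh38.p14, read 5′ to 3′ along the gene's own strand, and capitals mark each CCAAT and each TGACNNNGC on either strand (a match on the opposite strand reads as its reverse complement), TGACNNNGC being the core of the element that NRF2 binds.
HMGCS1, chr5:43313413-43313662, minus strand: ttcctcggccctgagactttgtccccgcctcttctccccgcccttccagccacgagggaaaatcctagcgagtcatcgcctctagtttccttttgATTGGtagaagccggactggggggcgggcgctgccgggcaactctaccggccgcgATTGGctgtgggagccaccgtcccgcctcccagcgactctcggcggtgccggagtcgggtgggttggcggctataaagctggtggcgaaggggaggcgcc
PLIN3, chr19:4867668-4867917, minus strand: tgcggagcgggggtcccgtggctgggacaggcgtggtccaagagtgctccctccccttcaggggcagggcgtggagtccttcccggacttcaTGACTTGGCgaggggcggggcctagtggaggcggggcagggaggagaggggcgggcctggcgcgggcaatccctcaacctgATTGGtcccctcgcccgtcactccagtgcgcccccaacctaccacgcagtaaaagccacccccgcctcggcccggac
PLIN4, chr19:4518487-4518736, minus strand: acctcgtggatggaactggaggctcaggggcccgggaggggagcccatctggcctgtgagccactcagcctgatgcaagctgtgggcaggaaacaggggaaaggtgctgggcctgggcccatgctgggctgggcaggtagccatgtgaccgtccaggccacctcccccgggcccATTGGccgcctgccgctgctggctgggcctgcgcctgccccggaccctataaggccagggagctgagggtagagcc
ABCA7, chr19:1039857-1040106, plus strand: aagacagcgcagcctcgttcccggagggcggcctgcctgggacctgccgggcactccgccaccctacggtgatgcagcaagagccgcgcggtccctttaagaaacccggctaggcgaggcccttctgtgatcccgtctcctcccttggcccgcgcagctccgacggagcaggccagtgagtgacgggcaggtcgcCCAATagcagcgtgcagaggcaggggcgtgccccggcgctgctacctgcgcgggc
All 7 members were found in the RefSeq table, HMGCS1 with 2 start sites of which the upstream one is printed. A CCAAT on either strand stood in the printed stretches of HMGCS1 (2 copies), PLIN3, PLIN4 and ABCA7, and also before the starts of PLIN5 and AMACR, but not of LPCAT1. It occurred in 32% of the 35116 human promoter stretches of that length. In the perilipins the motif lay on the opposite strand, its first base at position -77 from the RefSeq start in PLIN3, -76 in PLIN4 and -68 in PLIN5. The gene coordinates given below come from another annotation, and their starts can differ. They put the PLIN3 start at 4867768, inside the printed stretch, so that its motif falls within the gene. The PLIN4 start is 4518465 there, short of its stretch, and of the perilipins only PLIN5 has the same start in both. The likeness of these distances thus depends on the annotation. The HMGCS1 start (43313512) also lies inside its printed stretch. TGACNNNGC was found before PLIN3 at position -158 and before the second start of HMGCS1 at positions -189 and -93, against 10.9% of all stretches. The sterol element core CACCCCAC, present in 2.43% of stretches, was not among these letters in any member. Numbers of CpG dinucleotides ran from 8 in PLIN4 to 28 in LPCAT1, beside a median of 11 over all stretches. PLIN4 was the member with the fewest, and the other members held 17 or more, a number reached by 39% of all stretches.

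Library totals ran from 5388335 to 7670446 reads, and levels are given in CPM, the count scaled to a library total of 1000000. Most names in the tables could not be read as they stand: of 625 genes used by every cell that lie outside 5 stretches of chromosomes 5, 9, 11, 18 and 19, only 116 reached 30 CPM, against 34 of 34 inside them. The stretches were found from these same genes at this level, so the count inside follows from the rule. Of the other coding genes, 66.7% reached a mean of 1 CPM inside the stretches and 32.9% outside. Of noncoding entries, 9.24% did inside and 7.77% outside. The members lie in the stretches of chromosome 5 (HMGCS1, LPCAT1, AMACR) and chromosome 19 (PLIN3, PLIN4, PLIN5, ABCA7). The entries named for the silenced genes all lie outside the stretches, where names could not be relied on, so they check the labels only loosely. The KMT2A (MLL1) entry had 99.7, 35.6 and 32 CPM in shMLL1 (H2O2, CeO2, untreated), against 482, 494 and 464 in shControl (log2 change -3.25 ± 0.24 SE, edgeR adjusted p = 7.07e-07). It had 339, 291 and 318 CPM in shUTX, which did not pass (-0.59 ± 0.21, adjusted p = 0.052). KDM6A had at most 1 count in a shUTX library, against 5 to 6 in shControl and 4 to 5 in shMLL1 and shNRF2. NFE2L2 had 0 counts in shNRF2 against 12, 16 and 1 in shControl (H2O2, CeO2, untreated). It was also low in shMLL1 (1, 3 and 1 counts) and shUTX (1, 4 and 1), so low counts of this entry were not particular to shNRF2. Neither entry passed the filter of 1 CPM in 3 libraries. Among keratinocyte genes inside the stretches, PKP3 had 1563 to 2316 CPM, AQP3 201 to 417 and TINCR 5.67 to 67.1, while the adipocyte gene AQP7 had at most 4 counts and the melanocyte gene SLC45A2 and the endothelial gene TEK at most 1. IL7R, on the lymphocyte list, had 216 to 630 CPM, while CCL21 of that list had 0 counts. Keratin entries lie outside the stretches and were not read. The untreated libraries of shMLL1 and shControl stood apart, with levels that changed by -0.154 and -0.184 log2 CPM per doubling of exon length, against slopes of -0.049 to 0.097 in the other libraries. The members called against shControl numbered 2 in shMLL1, 5 in shUTX and 0 in shNRF2 without the untreated library of shControl, and 2, 4 and 0 with a trend in length removed, beside 2, 4 and 0 with all libraries as they stand.

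Per kilobase of exon, PLIN3 was the most abundant member, at a mean of 153 CPM per kb over the 12 libraries, followed by LPCAT1 at 113 and HMGCS1 at 91.5. ABCA7 followed at 11.4, AMACR at 2.96, PLIN4 at 0.797 and PLIN5 at 0.0109 CPM per kb. The library ranges of the 3 highest overlapped (104 to 181, 88 to 137 and 51.3 to 115), whereas from ABCA7 (6.52 to 16.2) through AMACR (1.93 to 4.09), PLIN4 (0.106 to 1.38) and PLIN5 (0 to 0.0733) no range overlapped the next. These values divide by the full exon length. AMACR shares 2660 exon bases with another entry on the same strand, so its value per kb is uncertain. PLIN3 was the perilipin read at a high level among the 3 genes of this family inside the stretches. PLIN5 (ENSG00000214456, chr19:4522531-4535224, minus strand) had 4 counts in all: 2 in the H2O2 library of shMLL1 and 1 each in the CeO2 libraries of shNRF2 and shControl. A count of 0 allows up to 3 counts, or 0.391 to 0.557 CPM in these libraries, so differences in PLIN5 were not detectable at this depth. Its exons share 1047 bases with another coding entry on the same strand, ENSG00000267385, which had 14 counts. The 6 other members passed the filter and are tested below.

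**Figure D1:**
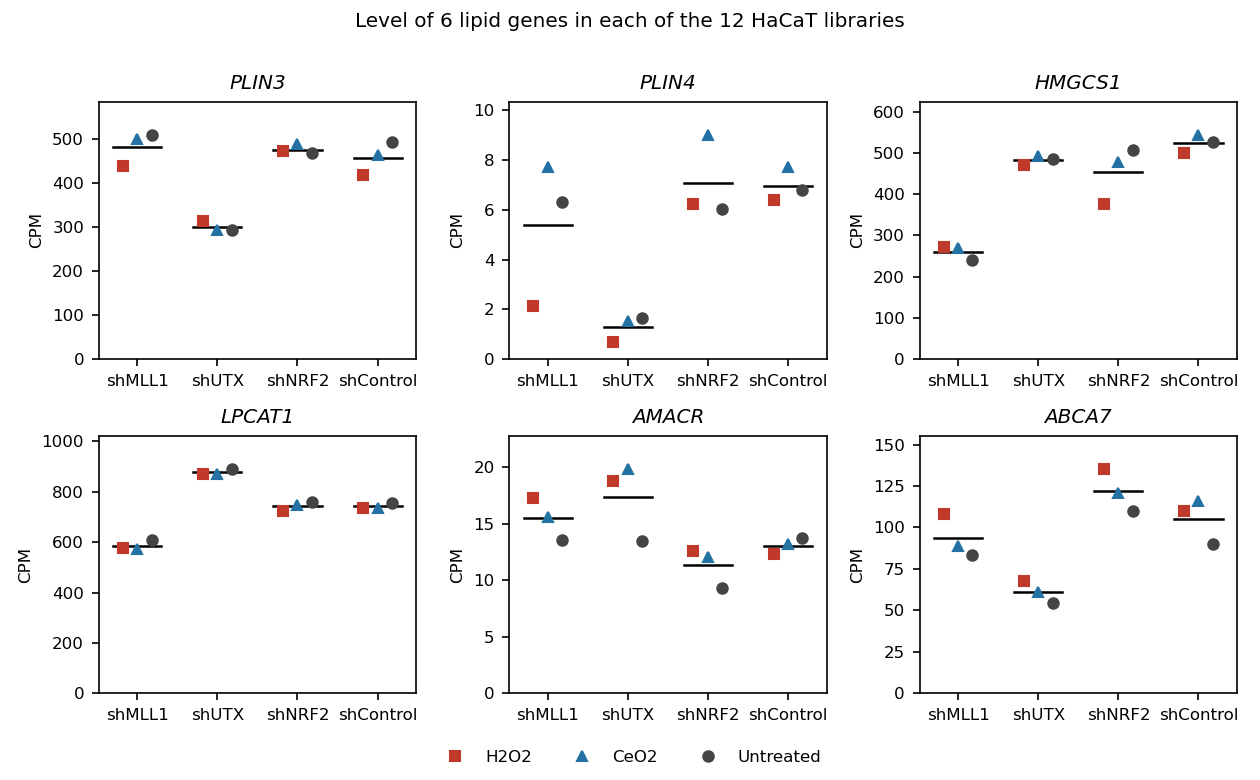
Level of each of the 6 tested members in CPM (vertical axis, from 0) in each of the 12 libraries, by derivative (horizontal axis) and treatment (symbols); black lines are means of the 3 libraries of a derivative. The shUTX libraries sit lowest for PLIN3, PLIN4 and ABCA7 and highest for LPCAT1, and the shMLL1 libraries sit lowest for HMGCS1 and LPCAT1.

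PLIN3 and PLIN4, the droplet coat genes, were lower in shUTX. PLIN3 (ENSG00000105355, chr19:4838341-4867768, minus strand) had 315, 293 and 294 CPM in the H2O2, CeO2 and untreated libraries of shUTX, against 419, 463 and 493 CPM in those of shControl. The groups did not overlap, and the highest shUTX library lay below every library of the other 3 derivatives. Its log2 change was -0.58 ± 0.09 (SE; 1.5-fold lower, adjusted p = 0.000389, edgeR's quasi-likelihood test with Benjamini-Hochberg adjustment, as for every adjusted p below unless another tool is named). In shMLL1 it had 438, 500 and 509 CPM and in shNRF2 472, 488 and 469 CPM, both overlapping shControl, with log2 changes of 0.04 ± 0.09 (adjusted p = 0.825) and 0.02 ± 0.09 (adjusted p = 0.951). The 95% intervals of these differences, -0.15 to 0.24 and -0.18 to 0.21, hold no change of the size seen in shUTX. In these bulk libraries a lower level of a transcript in every cell cannot be told apart from fewer cells that carry it.

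PLIN4 (ENSG00000167676, chr19:4502180-4518465, minus strand) had 0.689, 1.53 and 1.67 CPM in the H2O2, CeO2 and untreated libraries of shUTX, against 6.4, 7.71 and 6.78 CPM in shControl. These are 23 reads in all in shUTX and 148 in shControl, and the groups did not overlap. The log2 change of -2.42 ± 0.36 (5.35-fold lower, adjusted p = 0.00019) was the largest among the members in any knockdown. In shMLL1 the level was 2.12 CPM with H2O2 but 7.71 CPM with CeO2 and 6.32 CPM untreated, so that 1 library stood below shControl and the other two lay beside it (log2 change -0.44 ± 0.28, adjusted p = 0.345). In shNRF2 it was 6.23, 9 and 6.05 CPM (-0.04 ± 0.26, adjusted p = 0.96). Of the exon bases of PLIN4, 32 are shared with HDGFL2 on the opposite strand, which averaged 318 CPM. The sources do not say whether reads were counted by strand. Reads on these bases may thus have been given to the wrong gene or to neither.

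HMGCS1, the sterol synthesis enzyme, was lower in shMLL1. It (ENSG00000112972, chr5:43289395-43313512, minus strand) had 271, 269 and 241 CPM in the H2O2, CeO2 and untreated libraries of shMLL1, against 501, 543 and 526 CPM in shControl. All 3 shMLL1 libraries lay below every other library of the series. The log2 change was -1.04 ± 0.09 (2.05-fold lower, adjusted p = 3.57e-06). In shUTX the levels were 470, 493 and 486 CPM (-0.09 ± 0.09, adjusted p = 0.508). In shNRF2 they were 377, 478 and 506 CPM, with the H2O2 library set apart below the other two (-0.26 ± 0.09, adjusted p = 0.118). Directly compared, HMGCS1 was higher than in shMLL1 by 0.95 ± 0.09 in shUTX (adjusted p = 4.83e-06) and by 0.78 ± 0.09 in shNRF2 (adjusted p = 5.04e-05). Its exons share 703 bases with an antisense entry that had 0 counts.

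LPCAT1, the phospholipid remodelling enzyme, moved in opposite directions in 2 knockdowns. It (ENSG00000153395, chr5:1456480-1523977, minus strand) had 578, 572 and 607 CPM in the H2O2, CeO2 and untreated libraries of shMLL1, 871, 870 and 888 CPM in shUTX, and 723, 745 and 757 CPM in shNRF2, against 735, 734 and 756 CPM in shControl. The shMLL1 libraries lay below all others and the shUTX libraries above all others, while shNRF2 overlapped shControl. Log2 changes were -0.37 ± 0.07 in shMLL1 (1.29-fold lower, adjusted p = 0.00305), 0.27 ± 0.07 in shUTX (1.2-fold higher, adjusted p = 0.0129) and -0.04 ± 0.07 in shNRF2 (adjusted p = 0.783). The direct difference of shUTX from shMLL1 was 0.64 ± 0.07 (1.56-fold higher, adjusted p = 2.25e-05). The rise in shUTX missed the threshold when only the 6 libraries compared were fitted (adjusted p = 0.19) and without the H2O2 or the CeO2 library of shUTX (adjusted p = 0.0871 in each case).

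AMACR, the fatty acid racemase (ENSG00000242110, chr5:33986178-34008108, minus strand), had 17.3, 15.6 and 13.6 CPM in shMLL1, 18.8, 19.8 and 13.5 CPM in shUTX and 12.6, 12.1 and 9.36 CPM in shNRF2, against 12.3, 13.2 and 13.7 CPM in shControl (H2O2, CeO2, untreated in each). Each knockdown overlapped shControl in at least 1 library. No comparison with shControl passed the threshold (shMLL1 0.20 ± 0.17, adjusted p = 0.499; shUTX 0.43 ± 0.17, adjusted p = 0.0781; shNRF2 -0.26 ± 0.17, adjusted p = 0.443). Against shNRF2, shUTX was 0.68 ± 0.17 higher (1.6-fold, adjusted p = 0.0101), and this missed the threshold without the CeO2 library of shUTX (adjusted p = 0.0752). Without the untreated library of shControl the difference of shUTX from shControl was 0.63 and passed (adjusted p = 0.00518). AMACR shares 2660 exon bases on the same strand with the read-through entry C1QTNF3-AMACR, which had 7 counts in all, and 475 with a pseudogene that had 7, so its counts are uncertain.

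ABCA7, the phospholipid transporter (ENSG00000064687, chr19:1040101-1065572, plus strand), was lower in shUTX. It had 67.7, 61.2 and 54.6 CPM in the H2O2, CeO2 and untreated libraries of shUTX, against 110, 116 and 90 CPM in shControl. The groups did not overlap, and each shUTX library lay below all libraries of the other derivatives. The log2 change was -0.76 ± 0.09 (1.69-fold lower, adjusted p = 2.61e-05). The gene had 108, 89.1 and 83.6 CPM in shMLL1 and 135, 121 and 110 CPM in shNRF2, with log2 changes of -0.20 ± 0.09 (adjusted p = 0.153) and 0.17 ± 0.09 (adjusted p = 0.274). The direct difference of shNRF2 from shMLL1 was 0.37 ± 0.09 (1.3-fold higher, adjusted p = 0.0108), which missed the threshold once a trend with transcript length was removed (adjusted p = 0.118).

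**Figure D2:**
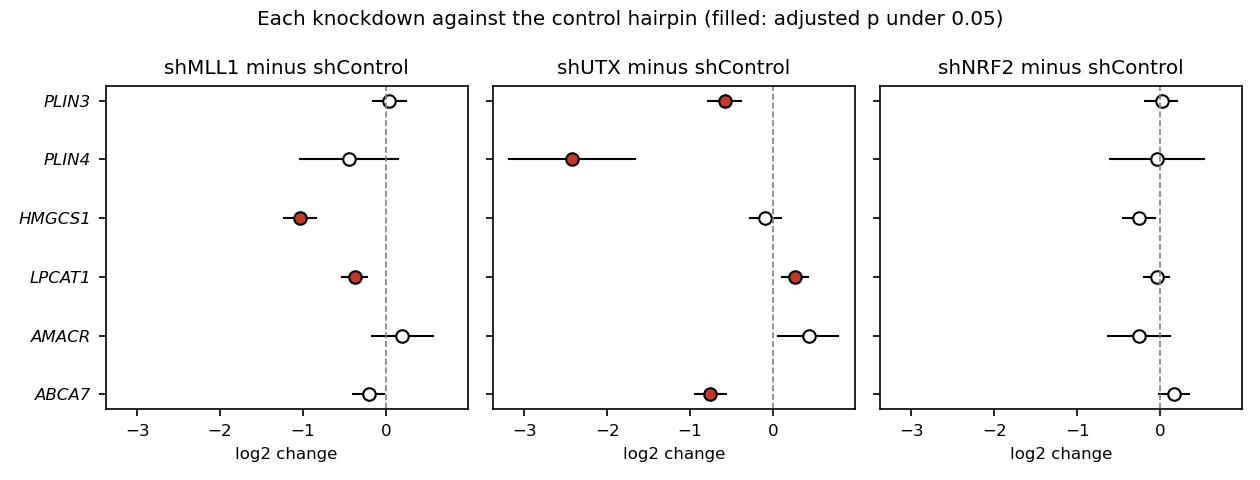
Log2 change of the 6 tested members (rows) in each knockdown against shControl (panels), with bars for the 95% interval of the fit and filled points where the adjusted p is under 0.05. In shMLL1 the filled points are HMGCS1 at -1.04 and LPCAT1 at -0.37, in shUTX PLIN3, PLIN4 and ABCA7 lie to the left of 0 and LPCAT1 to the right, and in shNRF2 no point is filled.

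Counted over the 6 tested members, 2 passed the threshold in shMLL1, where 12.2% of all 10800 entries tested did. In shUTX 4 passed, against 26.3% of all entries, and in shNRF2 0 passed, against 5.33%, with 1 member at an unadjusted p under 0.05 and 0 calls by DESeq2 or limma-voom as well. Inside the stretches, where all members lie, the share of entries called was higher than over the whole table, at 26.2% in shMLL1, 38.9% in shUTX and 9.51% in shNRF2. With 6 genes, the members' counts in shMLL1 and shNRF2 are near these shares. The members were chosen with earlier results of these data known, so no excess in shUTX or between knockdowns can be read from such counts. The median log2 change of the members was -0.29, -0.33 and -0.04 in shMLL1, shUTX and shNRF2, beside 0.01, 0.00 and 0.01 for all entries. Inside the stretches the median was -0.09, -0.07 and -0.08. Between knockdowns, 5 of 6 members differed between shUTX and shMLL1 (18% of all entries and 37.2% of those inside the stretches), 5 of 6 between shUTX and shNRF2 (23.4% and 38.5%) and 3 of 6 between shNRF2 and shMLL1 (11.3% and 27.1%). The log2 difference of shUTX from shMLL1 was -0.62 ± 0.09 for PLIN3 (adjusted p = 0.000276) and -1.98 ± 0.37 for PLIN4 (adjusted p = 0.00168). The comparisons with shControl share its 3 libraries.

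PLIN4 lies among genes that were also low in shUTX. Of the 9 tested entries that start within 150 kb of its start, 6 were called lower in shUTX and 0 higher. Of all entries tested 13.7% were called lower, and of those inside the stretches 38.9% were called in either direction. SEMA6B, a membrane semaphorin whose start lies 41.3 kb away, had 6.89 to 8.35 CPM in shUTX, against 73 to 89.2 in shControl (log2 change -3.39 ± 0.14, adjusted p = 5.49e-10). LRG1, a secreted glycoprotein 22 kb away, had 14.4 to 23.8 CPM against 72.3 to 90.6 (-2.07 ± 0.16, adjusted p = 7.25e-07). TNFAIP8L1 at 121.1 kb fell by 1.45, UBXN6 by 0.55, HDGFL2 by 0.47 and ENSG00000280239 by 0.90 on the log2 scale, and HDGFL2 missed the threshold without the untreated library of shUTX (adjusted p = 0.0585). CHAF1A (0.04 ± 0.08, adjusted p = 0.724) and SH3GL1 (-0.18 ± 0.08, adjusted p = 0.108), whose starts lie at -115.8 and -117.9 kb, did not pass. In shMLL1 and in shNRF2, SEMA6B was the single called entry among the 9, at -0.99 ± 0.11 and -0.84 ± 0.11. SEMA6B had 40.9 to 45.1 CPM in shMLL1 and 44.8 to 52.9 CPM in shNRF2, below every shControl library. The neighbours of PLIN3 differed in direction in shUTX: of 5 tested entries within 150 kb, TICAM1 was called higher (0.33 ± 0.09, adjusted p = 0.0168) and KDM4B lower (-0.50 ± 0.09, adjusted p = 0.000787), with a median log2 change of 0.21.

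**Figure D3:**
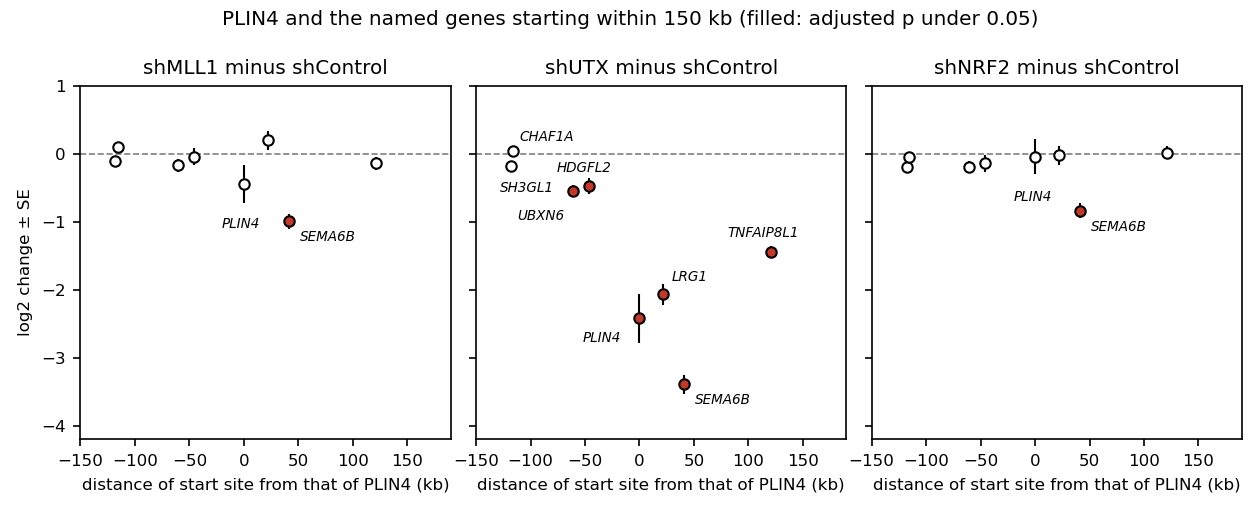
Log2 change ± SE (vertical axis) of PLIN4 and the named genes that start within 150 kb of it, against the distance of their start sites from that of PLIN4 in kb (horizontal axis), in each knockdown against shControl; filled points have an adjusted p under 0.05. In shUTX the points at distances of 0 and above (PLIN4, LRG1, SEMA6B and TNFAIP8L1) lie between -3.39 and -1.45, and CHAF1A and SH3GL1 lie near 0.

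Around ABCA7, 4 of 13 tested entries within 150 kb were called lower in shUTX and 0 higher, where 13.7% of all entries were called lower and 38.9% of those inside the stretches were called in either direction. The adjoining gene ARHGAP45 had 83.2 to 89.2 CPM in shUTX, against 142 to 162 in shControl (-0.78 ± 0.11, adjusted p = 0.000119), a change close in size to that of ABCA7, while CNN2 (-0.01 ± 0.07) and POLR2E (0.00 ± 0.09) nearby did not pass (adjusted p = 0.965 and 0.983). Of the 2 tested entries within 150 kb of HMGCS1, neither was called in shMLL1. CCL28 changed by 0.00 ± 0.11 (adjusted p = 0.984) and NIM1K by -0.10 ± 0.38 (adjusted p = 0.9). NIM1K averaged only 1.2 CPM, near the filter, so its value is loose. Near AMACR, ADAMTS12 had 30.2 to 39.3 CPM in shMLL1, against 139 to 244 in shControl (-2.55 ± 0.14, adjusted p = 3.56e-08), whereas AMACR did not pass there.

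Likeness of pattern was described by Pearson's r of log2(CPM + 1) over the 12 libraries, which share derivatives and treatments. It was 0.88 between PLIN3 and PLIN4, 0.79 between PLIN3 and ABCA7 and 0.83 between HMGCS1 and LPCAT1. AMACR ran against PLIN4 at -0.69. Among 367 other entries of the stretches with a mean of at least 5 CPM, the one most like PLIN3 was CHMP5 (r = 0.972), followed by IFITM3 (0.967) and IFITM2 (0.966). PLIN4 was most like TNFAIP8L1 (0.92), ARHGEF39 (0.888) and SEMA6B (0.884), the first and the last of which are among its neighbours. HMGCS1 was most like DNAJC21 (0.956), ATPSCKMT (0.946) and TENT4A (0.929), and LPCAT1 most like GOLPH3 (0.971), CCT5 (0.97) and TRIP13 (0.967), all on chromosome 5. ABCA7 was most like FYB1 (0.965), PTPRS (0.957) and LMNTD2 (0.946). AMACR had no close match, its highest being MRPS30 (0.754), and PLIN5, with 4 counts, reached 0.618 with ANXA2R-OT1, 0.578 with NNT-AS1 and 0.534 with PIP5K1C.

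No member passed the threshold after either exposure, where 0% of all entries tested were called with H2O2 and 0.0185% with CeO2. At an unadjusted p under 0.05 stood 2102 entries with H2O2, while DESeq2 called 124 entries and limma-voom 0, with 0 members by either tool. ABCA7 had the smallest p of the members with H2O2: its level was 108, 67.7, 135 and 110 CPM with H2O2 in shMLL1, shUTX, shNRF2 and shControl, against 83.6, 54.6, 110 and 90 CPM untreated. It was higher with H2O2 in 4 of 4 derivatives, each by 1.22 to 1.29 times in CPM. These ratios leave out the library factors (TMM) of the fit. In shControl the factors were 0.914 untreated and 1.022 with H2O2, so that its rise is smaller with them. The fitted log2 change of 0.25 ± 0.08 did not pass after adjustment (adjusted p = 0.146). With CeO2 the same gene had 89.1, 61.2, 121 and 116 CPM, above untreated in 4 of 4 derivatives, with a log2 change of 0.12 ± 0.08 (adjusted p = 0.423).

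No other member passed with either exposure. With H2O2, log2 changes against untreated were -0.15 ± 0.08 for PLIN3 (adjusted p = 0.301), -0.54 ± 0.27 for PLIN4 (0.28), -0.16 ± 0.08 for HMGCS1 (0.268), -0.12 ± 0.06 for LPCAT1 (0.301) and 0.19 ± 0.15 for AMACR (0.506). With CeO2 they lay between -0.12 (LPCAT1) and 0.21 (PLIN4), with adjusted p of 0.325 to 0.806. Within 1 derivative some ratios lay beyond counting error, which is all that such a ratio of 2 libraries can show. HMGCS1 in shNRF2 stood at 0.744 times the untreated level with H2O2 (95% interval 0.705 to 0.785), against 0.953 times in shControl (0.91 to 0.997). These ratios are of CPM and leave out the library factors (TMM) of the fit, which narrow this contrast. Untreated and with H2O2 the factors were 0.914 and 1.022 in shControl and 1.018 and 1.019 in shNRF2. Tested over both agents, the response of HMGCS1 in shNRF2 differed from that of shControl by -0.07 ± 0.13 (edgeR adjusted p = 0.797). PLIN4 in shMLL1 stood at 0.335 times with H2O2 (0.161 to 0.644), on 12 reads against 45. AMACR in shUTX stood at 1.39 times with H2O2 (1.02 to 1.89) and 1.46 times with CeO2 (1.09 to 1.97), while shControl stood at 0.894 times with H2O2 and 0.966 times with CeO2, both with intervals across 1.

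**Figure D4:**
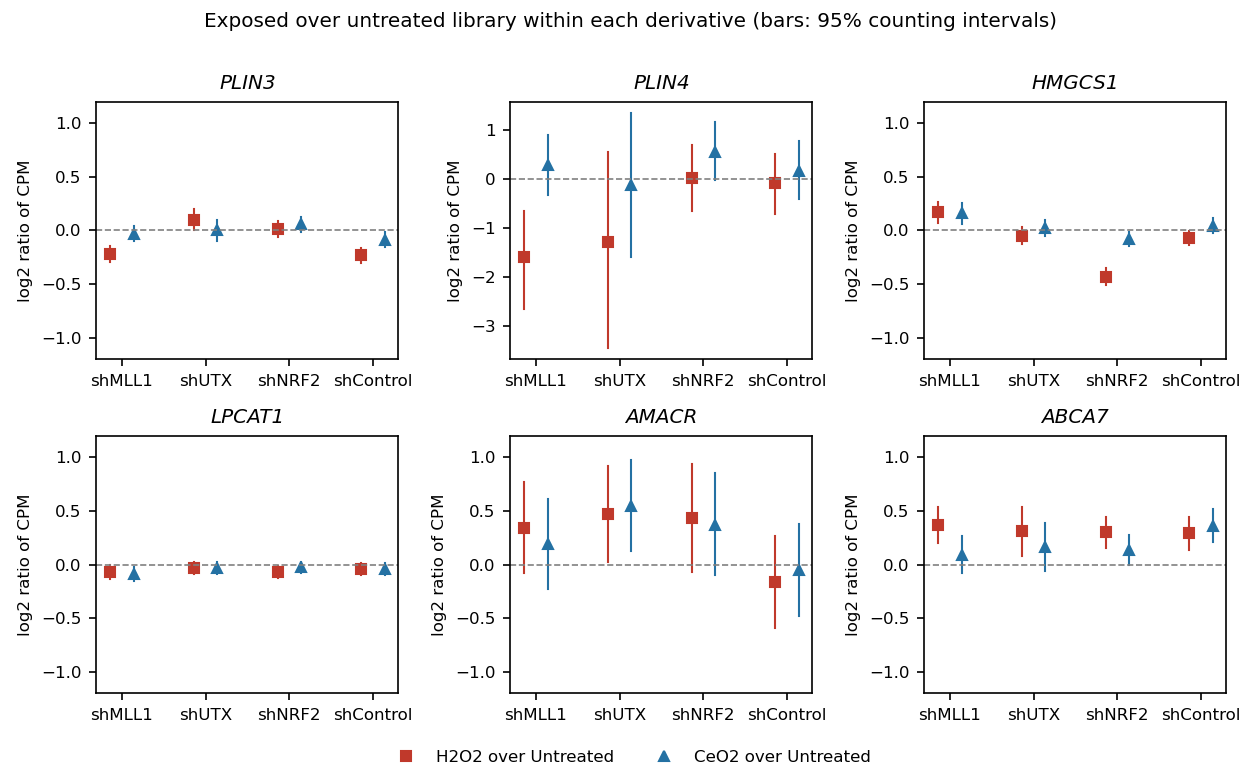
Log2 ratio of CPM in the H2O2 or CeO2 library to the untreated library of the same derivative for the 6 tested members; bars are exact 95% intervals that cover counting error only. All 8 ABCA7 points lie above 0, LPCAT1 stays within 0.1 of 0, and the H2O2 point of HMGCS1 in shNRF2 lies at -0.43. The CPM here leave out the TMM factors of the fits, so fitted changes can differ, as for LPCAT1 (-0.12 with either agent).

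Whether a knockdown changed the response to exposure, taken over both agents, was tested in a fit with 3 residual degrees of freedom. No member passed in shMLL1 (0.648% of all entries), shUTX (14.4%) or shNRF2 (16.6%). PLIN3 came nearest, with a response higher than that of shControl by 0.37 ± 0.13 in shUTX (adjusted p = 0.0569) and 0.36 ± 0.13 in shNRF2 (adjusted p = 0.0531). It passed under some other settings, such as a filter at 5 CPM in place of 1 CPM (edgeR adjusted p = 0.0479 and 0.0488). Its untreated shControl library was the highest of that derivative, at 493 CPM. In shUTX the response of AMACR was 0.78 ± 0.30 higher (adjusted p = 0.0868). These responses are set to the untreated shControl library, which stood apart in its length slope. The median changed response of the 473 tested entries of the stretches was 0.22 in shUTX and 0.24 in shNRF2, against -0.02 for all entries, and its part in the PLIN3 values was not tested.

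Beside the members, 18 further genes of 6 lists of lipid metabolism lie in the stretches, and 14 passed the filter. In shMLL1 3 were called higher and 1 lower, in shUTX 4 higher and 2 lower, and in shNRF2 3 higher and 0 lower. Of all entries 12.2%, 26.3% and 5.33% were called in shMLL1, shUTX and shNRF2, and of those inside the stretches 26.2%, 38.9% and 9.51%, so that the counts in shMLL1 and shUTX are near the shares inside the stretches. The 14 had a median log2 change of 0.15, 0.08 and 0.02. ACER2, an enzyme that splits ceramide into sphingosine and a fatty acid, was higher in every knockdown, at 19 to 26.3 CPM in shMLL1, 26.2 to 35.3 in shUTX and 20.7 to 24.3 in shNRF2, against 8.9 to 15.7 in shControl. None of the knockdown libraries overlapped shControl, and the log2 changes were 0.87 ± 0.13, 1.30 ± 0.13 and 0.84 ± 0.13 (adjusted p = 0.000481, 6.75e-06 and 0.00146). PRKAA1, a catalytic subunit of the energy sensor AMPK, was higher in shMLL1 (436 to 505 CPM) and shUTX (486 to 541 CPM) than in shControl (279 to 417 CPM), by 0.45 ± 0.10 and 0.60 ± 0.10 (adjusted p = 0.00636 and 0.000401), the first of which was lost without the H2O2 library of shMLL1 (0.0541).

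ATP8B3, a phospholipid flippase of the P4-ATPase family, was lower in shUTX, at 1.38 to 3.34 CPM against 5.99 to 8.06 in shControl (-1.32 ± 0.26, adjusted p = 0.0015). PLAA, an activator of phospholipase A2, was 0.33 ± 0.07 higher there (adjusted p = 0.00406), but missed the threshold in a fit of the libraries compared (0.103). DAB2, an adaptor for uptake of the LDL receptor, had 3, 3 and 0 counts in the H2O2, CeO2 and untreated libraries of shMLL1, against 13, 14 and 15 in shControl (-2.62 ± 0.66, adjusted p = 0.0163), a call lost without the untreated (0.0835) or the H2O2 library of shMLL1 (0.0595). AQP3, the glycerol and water channel of the epidermis, had 313 to 417 CPM in shNRF2, against 201 to 266 in shControl (0.64 ± 0.12, adjusted p = 0.0045), a call that, like that of ACER2 in shNRF2, was lost in a fit of the libraries compared (0.0627 and 0.0636). HACD4, a dehydratase of fatty acid elongation, was 0.32 ± 0.09 higher in shMLL1 (adjusted p = 0.0364) and 0.36 ± 0.09 higher in shNRF2 (adjusted p = 0.0377), while its log2 change in shUTX was -0.28 ± 0.10 (adjusted p = 0.0463). These 3 calls were lost under DESeq2 (0.0881 in shMLL1, 0.0764 in shNRF2 and 0.0962 in shUTX) and with most single libraries left out. After either exposure 0 of the 14 passed; the smallest p belonged to ACER2 (0.41 ± 0.11, adjusted p = 0.135) and ATP8B3 (-0.68 ± 0.21, adjusted p = 0.152) with H2O2, and to VAPA (-0.24 ± 0.07, adjusted p = 0.197) and ATP8B3 (-0.39 ± 0.21, adjusted p = 0.328) with CeO2.

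The exposure response differed from that of shControl for 0 of the 14 in shMLL1, for 2 higher and 1 lower in shUTX and for 3 higher and 1 lower in shNRF2. Of all entries 0.648%, 14.4% and 16.6% were called in shMLL1, shUTX and shNRF2, and inside the stretches 1.48%, 22% and 26%, so these counts are near the background and are read as no result about the list. The genes named here were chosen for mention after their values were seen. PNPLA2, the main lipase of lipid droplets, had 253 and 197 CPM in the H2O2 and CeO2 libraries of shUTX against 184 untreated, 268 and 220 CPM in shNRF2 against 208 untreated, and 180 and 183 CPM in shControl against 206 untreated. Its changed response was 0.62 ± 0.15 in shUTX (adjusted p = 0.0074) and 0.57 ± 0.14 in shNRF2 (adjusted p = 0.0101), set to the same untreated shControl library that stood apart. AQP3 had a changed response of 0.63 ± 0.15 in shUTX (adjusted p = 0.00702) and 0.44 ± 0.14 in shNRF2 (adjusted p = 0.0402), and PTDSS2, an enzyme of phosphatidylserine synthesis, one of 0.50 ± 0.14 in shNRF2 (adjusted p = 0.0173). PRKAA1 had -0.41 ± 0.13 in shUTX (adjusted p = 0.0411) and -0.40 ± 0.13 in shNRF2 (adjusted p = 0.0378). With the trend in length removed, the calls of PRKAA1 in shUTX and shNRF2 and of AQP3 in shNRF2 were lost (0.125, 0.149 and 0.243). They were also lost under DESeq2 (0.127, 0.116 and 0.105) and when single libraries were left out: the H2O2 or the CeO2 library of shMLL1 for all 3, with adjusted p of up to 0.128 for PRKAA1 in shUTX (without its CeO2 library), 0.159 for PRKAA1 in shNRF2 and 0.224 for AQP3 (both without the CeO2 library of shNRF2). The call of PTDSS2 was lost under DESeq2 (0.0589) and without the H2O2 library of shNRF2 (0.0703).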

How the data were processed

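Total RNA libraries of HaCaT cells were sequenced by the authors, 1 for each of 4 derivatives and 3 treatments. They deposited 2 tables of raw counts by Ensembl entry, alike in the untreated libraries but for 1 cell; untreated counts came from the H2O2 table. Per the submitters' processing notes the build was GRCh38 and the tools were HISAT2 2.2.1, HTSeq 0.11.1, Trimmomatic 0.39 and SAMtools 1.12; annotation and strand use are not given there. Names matched for 61399 of 61498 entries, and positions and exon lengths came from GENCODE 29.

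Matched stretches were found with a hidden Markov model of 2 states over 659 genes that every cell uses (chance of reaching 30 CPM set to 0.95 in a stretch and to 0.25 elsewhere, 0.02 for a switch), keeping runs with 3 or more such genes and a median of 150 CPM or more. They held 1551 entries. The 10800 entries that reached 1 CPM in 3 or more libraries were scaled by TMM and fitted with edgeR 4.0.16 (two-sided, adjusted p threshold 0.05, adjusted over all entries), as derivative plus treatment with 6 residual degrees of freedom. Alternatives were RLE scaling, other filters (5 CPM, or any count), DESeq2 1.42.0, limma-voom (limma 3.58.1), fits of the libraries compared, the other table's untreated counts and each library left out. For changed responses only exposed libraries were left out, and no fit of the libraries compared was run. Removal of a length trend was added after seeing the data. The code was tested on simulated counts. Intervals (exact, 95%) and the limit that a count of 0 allows cover counting error only. The members and gene lists were chosen with earlier results of these data known. Members are all named; of the other lipid genes, up to 4 called ones with the largest change in each knockdown and the 2 with the smallest p in each exposure are named.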

Additional observations from a re-analysis of the deposited data

Results flagged for a closer look

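PNPLA2 responded to exposure differently from shControl in 2 derivatives by a test of the difference itself, with log2 values of 0.62 ± 0.15 in shUTX (edgeR adjusted p = 0.0074) and 0.57 ± 0.14 in shNRF2 (adjusted p = 0.0101). The other lipid genes of the lists flagged in the same way were AQP3, with 0.63 in shUTX and 0.44 in shNRF2, PRKAA1, with -0.41 in shUTX and -0.40 in shNRF2, and PTDSS2, with 0.50 in shNRF2. The median changed response of entries inside the stretches was 0.22 in shUTX and 0.24 in shNRF2, where 22% and 26% of them were called, so flags in this number are near that background. All 7 values rest on the single untreated shControl library, and no member had a called difference of this kind in the same fit.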

How the results depend on the processing

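The members' calls against shControl kept their counts under most settings. In shMLL1 it was 2 of 6 under every setting run, and each omission of 1 library left 2. In shUTX it was 4, or 3 when only the libraries compared were fitted, and 3 to 5 with 1 library left out. In shNRF2 it was 0 throughout. With 1 library left out, the members called in shNRF2 against shMLL1 ran from 1 to 4. For changed responses only exposed libraries were left out, so the untreated shControl library stayed in every such fit. Members with a changed response then ran from 0 to 1 in shUTX and in shNRF2. The 1 member gained was PLIN3. In shUTX it was gained without the CeO2 library of shUTX or without the H2O2 or the CeO2 library of shControl. In shNRF2 it was gained without the H2O2 or the CeO2 library of shUTX or of shControl. With all libraries, PLIN3 was also gained in both by RLE scaling or the filter at 5 CPM, and in shNRF2 by limma-voom. ABCA7 against shMLL1 in shNRF2 was lost without the untreated or CeO2 library of shMLL1 or the H2O2 library of shNRF2, and LPCAT1 there without the CeO2 library of shMLL1 (adjusted p = 0.0692) or of shNRF2 (0.0546).

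Changes of sign were seen in values that had not passed the threshold; they include the PLIN4 changed responses of -0.36 in shMLL1, which turned to 0.12 without its H2O2 library, and 0.42 in shNRF2, which turned to -0.02 without the CeO2 library of shControl. With the length trend removed, PLIN3 had 0.00 in shNRF2 against shMLL1 and -0.02 in the changed response of shMLL1; ABCA7 had -0.03 (no filter) and -0.02 (5 CPM) in that response. With 1 library left out, PLIN3 ran from -0.02 to 0.13 in shMLL1 and -0.05 to 0.10 in shNRF2 against shControl, and -0.09 to 0.04 in shNRF2 against shMLL1; PLIN4 in shNRF2 ran from -0.23 to 0.17; HMGCS1 with CeO2 ran from -0.10 to 0.01. With 1 exposed library left out, changed responses ran from -1.30 to 0.12 (PLIN4) and -0.11 to 0.12 (ABCA7) in shMLL1, -0.04 to 0.19 (ABCA7) in shUTX, and -0.02 to 0.76 (PLIN4), -0.21 to 0.07 (HMGCS1) and -0.06 to 0.18 (ABCA7) in shNRF2. The cause was not tested.

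Numbers of entries called over the whole table depended more on the setting. Fits of the libraries compared called 1426 entries in shUTX and 154 in shNRF2 against shControl, 2955 in shUTX and 1991 in shNRF2 against shMLL1, 4351 in shUTX against shNRF2, 3 with H2O2 and 0 with CeO2. With no filter beyond a count above 0 there were 907 in shNRF2 against shControl, 651 with H2O2, 543 with CeO2 and 218 for the changed response in shMLL1. With 5 CPM there were 0 with CeO2 and 33 for that response. DESeq2 called 124 with H2O2, 44 with CeO2, and 27, 658 and 673 changed responses in shMLL1, shUTX and shNRF2; limma-voom called 0 with CeO2. With 1 library left out, entries called against shControl ran from 667 to 1941 in shMLL1, from 1931 to 3088 in shUTX and from 257 to 829 in shNRF2. They ran from 1170 to 2989 in shUTX and from 598 to 2252 in shNRF2 against shMLL1, from 1652 to 3604 in shUTX against shNRF2, from 0 to 43 with H2O2 and from 0 to 29 with CeO2. With 1 exposed library left out, entries with a changed response ran from 4 to 679 in shMLL1, from 816 to 2111 in shUTX and from 1317 to 2330 in shNRF2. Among the 14 other lipid genes, calls in shMLL1 numbered 1 without its H2O2 library and 2 without its untreated one; in fits of the libraries compared they numbered 3 in shUTX and 0 in shNRF2.

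The labels give no replicate numbers to pair libraries by; treatment, which the derivatives share, stood as a block in the fit. Depth limits PLIN5 (4 counts) and PLIN4 (4 to 69 per library), whose shUTX values rest on 23 reads.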
